A study of Mus musculus with 10 samples.

Results

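Cells that secrete protein fold it in the endoplasmic reticulum (ER), and 10 genes of that system were followed here across lung RNA of mice given bleomycin. They were chosen by name and by function, with earlier results of these data known. The 10 were the chaperone genes Hspa5, Hsp90b1, Calr and Canx, the disulfide isomerase genes Pdia3, Pdia4 and Pdia6, and the transcription factor genes Xbp1, Atf4 and Ddit3. All 10 were in the table of 33347 mouse genes, and all 10 passed the filter on low counts that left 10844 genes for testing. The filter asks for a minimum level in 5 libraries, of either group.

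All mice were wild type (WT) and had bleomycin, a DNA-damaging drug that scars the lung, and all had received bone marrow cells sorted by aldehyde dehydrogenase (ALDH) activity. The 5 ALDHbr libraries came from lungs of mice injected with high-activity cells, and the 5 ALDHdim libraries came from the matching injections of low-activity cells. The labels name no strain, age, dose or time, and lungs without bleomycin or without transferred cells were not analysed here, so each difference is between the 2 kinds of transferred cell. The RNA is that of whole tissue. In such a sample, fewer cells of a type and less RNA per cell cannot be told apart, and RNA of the transferred cells cannot be told from that of the host.

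When unfolded protein builds up in the ER, the sensors IRE1, PERK and ATF6 start the unfolded protein response. IRE1 splices the Xbp1 message, PERK slows translation while favouring that of Atf4, and ATF6 is cut to release a factor that switches on chaperone genes. BiP, the product of Hspa5, binds unfolded chains and holds the sensors inactive, and CHOP, the product of Ddit3, is the arm tied to cell death when stress lasts. In lung, the pathway is best known from alveolar type 2 cells, which make surfactant proteins, from plasma cells, and from fibroblasts that secrete collagen. Counting per gene does not separate spliced from unspliced Xbp1 and does not see translation of Atf4, so the values below are message levels only.

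The best described control sequence of ER chaperone genes is the ER stress response element (ERSE), read by ATF6 together with the CCAAT-binding factor NF-Y. Its letters, CCAAT and CCACG with 9 bases of any kind between them, were searched on both strands of the RefSeq windows on GRCm38.p6, which run from 250 bases before to 50 after a gene's start. All 10 genes matched a window. The element was in 39 of 32851 windows, or 0.119%, and 5 of the 10 genes held it: Hspa5, Hsp90b1, Calr, Canx and Pdia6. Because the element is already known from ER chaperone genes, its share among the 10 is a description and not a test. Their stretches are shown because 5 of the 7 chaperone and isomerase genes share these letters. Capitals mark the fixed letters of the element, and each stretch reads 5′ to 3′ in the direction of its gene, so that CGTGG followed by ATTGG is the element on the other strand.
Hspa5, chr2:34772005-34772063, plus strand: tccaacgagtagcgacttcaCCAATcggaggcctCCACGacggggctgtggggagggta
Hsp90b1, chr10:86705618-86705676, minus strand: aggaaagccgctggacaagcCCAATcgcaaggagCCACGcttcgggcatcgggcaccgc
Calr, chr8:84847055-84847113, minus strand: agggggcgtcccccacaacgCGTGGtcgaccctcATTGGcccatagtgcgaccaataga
Canx, chr11:50325780-50325838, minus strand: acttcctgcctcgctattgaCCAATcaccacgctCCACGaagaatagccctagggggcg
Pdia6, chr12:17266471-17266529, plus strand: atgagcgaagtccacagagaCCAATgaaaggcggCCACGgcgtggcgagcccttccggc

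The element began 65 bases before the start of Hspa5, 162 before that of Calr, 145 before that of Canx and 98 before that of Pdia6. Hsp90b1 held it at 212 bases and, on the other strand, at 107 bases before its start. With 1 fixed base allowed to change, 494 windows or 1.5% held it, and Pdia3, Pdia4 and Ddit3 joined. Their sites are shown in the direction of the element, with the changes counted from 1 at its 5′ end.
Pdia3, chr2:121413873-121413891, G19A: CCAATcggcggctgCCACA
Pdia4, chr6:47813602-47813620, G19T: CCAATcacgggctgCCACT
Ddit3, chr10:127290702-127290720, C15G: CCAATcagaaagcgGCACG

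Xbp1 and Atf4 had no such site in these windows. Searches on both strands for ERSE-II (ATTGG and CCACG with 1 base between them, in 0.0365% of windows) found none of the 10 genes. Neither did searches for TGACGTGG (0.676%), the only form of the XBP1 element searched, and for the C/EBP-ATF element TGATGNAA (3.97%). The Hspa5 window holds tgacgtga, which differs from TGACGTGG in its last letter. ERSE and ERSE-II share the letters CCACG and could overlap. A match is a description of letters, and a missing match says only that these letters are not in this window.

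The comparison between groups asked whether folding genes differed in lungs that had received one or the other kind of marrow cell. None of the 10 passed the test. Of the 10 genes, 0 passed an adjusted p of 0.05 in edgeR's quasi-likelihood test with Benjamini-Hochberg adjustment, where 0% of all tested genes did, and 0 had an unadjusted p under 0.05, against 3.71% of all tested genes, a count that rose from 402 to 1141 genes without ALDHbr 1. The adjusted p was 0.99925 for each of the 10. The estimate was lower in ALDHbr for 9 genes against 48.1% of all tested genes, and higher for 1, Pdia4, against 51.9%, and the median log2 fold change of ALDHbr over ALDHdim, counted on the TMM-scaled libraries, was −0.11, against 0.01 over all genes. The 9 lower estimates are not 9 separate observations, since the genes were measured in the same libraries and some vary together. In 0 of the 10 genes were the libraries of the groups apart, against 0.535% of all tested genes.

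**Figure D1:**
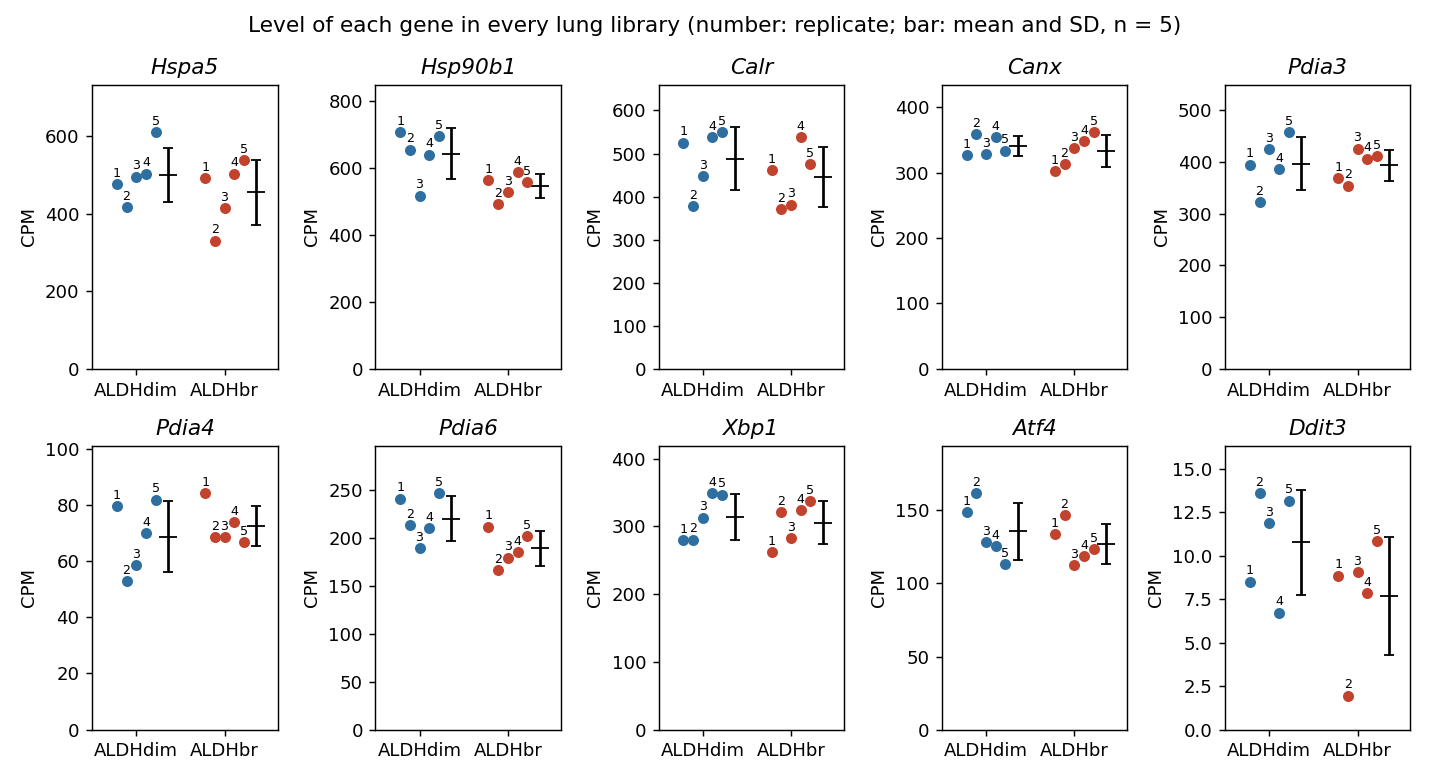
Level of each of the 10 genes in CPM, counts scaled to a common library size, in each library, 5 ALDHbr and 5 ALDHdim, with 1 point per library and bars for the group mean and SD. The groups overlap in every panel, and ALDHbr 2 is lowest in 5 of the 10 genes.

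Among the chaperones, Hspa5 encodes BiP, the ER Hsp70. Hspa5 had 493, 331, 414, 504 and 539 CPM in ALDHbr libraries 1 to 5 and 476, 418, 496, 504 and 610 in ALDHdim libraries 1 to 5. The lowest library, ALDHbr 2, and the highest, ALDHdim 5, differed 1.85-fold, and apart from these both groups covered much the same range. The means were 456 ± 83.7 and 501 ± 69.7 CPM (SD, n = 5 each). On the log2 scale the difference was −0.13 (SE 0.15), and −0.04 without ALDHbr 2.

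Hsp90b1 encodes GRP94, the ER Hsp90, which folds integrins and Toll-like receptors. Its levels were 564, 493, 529, 588 and 559 CPM in ALDHbr and 708, 656, 518, 641 and 697 CPM in ALDHdim. Of the ALDHdim libraries, 4 lay above every ALDHbr library, and ALDHdim 3 lay among those. The log2 fold change was −0.24 (SE 0.13), with a 95% interval of the fold from 0.701 to 1.03. Its unadjusted p of 0.0908 in edgeR was the lowest of the 10 genes. A noncoding gene of the other strand, 1810014B01Rik, is identical to Hsp90b1 over 83 bases near the 3′ end. It had 71 counts in all, against 7906 for Hsp90b1.

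Calreticulin and calnexin are the lectin chaperones that hold glycoproteins while they fold, one soluble and one in the membrane. Calr had 462, 372, 382, 537 and 475 CPM in ALDHbr and 525, 378, 447, 539 and 549 CPM in ALDHdim. ALDHbr 2, ALDHbr 3 and ALDHdim 2 stood below the other 7 libraries, with a gap of 0.407 of the whole range. Canx was the steadiest of the 10, from 303 to 362 CPM in ALDHbr and from 327 to 359 in ALDHdim. Its ratio of highest to lowest library was 1.19, and its log2 fold change was −0.03 (SE 0.12), against −0.13 (SE 0.15) for Calr.

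Disulfide isomerases form and reshuffle the disulfide bonds of secreted proteins, and none of the 3 passed. Pdia3, which works on glycoproteins held by calnexin and calreticulin, ranged from 354 to 426 CPM in ALDHbr and from 322 to 457 in ALDHdim, with a log2 fold change of −0.01 (SE 0.13). Pdia4 ranged from 66.6 to 84.2 and from 53.0 to 81.9 CPM, with a log2 fold change of 0.09 (SE 0.15), the single estimate above 0, which was 0.002 without ALDHdim 2 and 0.165 without ALDHdim 5. Pdia6, an isomerase that works with BiP and also acts on IRE1, had 212, 166, 180, 186 and 202 CPM in ALDHbr and 241, 213, 190, 211 and 247 CPM in ALDHdim. The 2 highest Pdia6 libraries were ALDHdim 5 and ALDHdim 1, and the 3 lowest were ALDHbr. Its log2 fold change was −0.21 (SE 0.12), with an unadjusted p of 0.0994 in edgeR. An exon of Atp6v1c2 on the other strand overlaps Pdia6, with 431 counts in all, and no source used here says whether counting used strand.

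Added together, the 7 chaperone and isomerase genes held 2097 to 2643 CPM in ALDHbr and 2399 to 2977 in ALDHdim. The group means were 2435 ± 225 and 2659 ± 233 CPM (SD, n = 5 each), so the ranges overlapped. They took 0.182% of all counts in ALDHbr 2 and 0.298% in ALDHdim 5, the libraries at either end. ALDHbr 2 was also the shallowest library, with 588063 counts, and had the most Scgb1a1 and Sftpc message. The part of depth and of epithelial message in its low chaperone level was not tested.

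Xbp1 encodes the factor that IRE1 activates by splicing. Its levels were 262, 321, 283, 324 and 337 CPM in ALDHbr and 280, 281, 313, 349 and 347 CPM in ALDHdim. ALDHbr 1, ALDHbr 3, ALDHdim 1 and ALDHdim 2 were the low libraries, which is not the set that was low for Calr. The log2 fold change was −0.04 (SE 0.13), and it was 0.01 without ALDHbr 1.

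Atf4 encodes the factor that drives amino acid supply and stress genes below PERK and other eIF2 kinases. It had 134, 147, 113, 119 and 123 CPM in ALDHbr and 149, 162, 128, 126 and 113 CPM in ALDHdim. ALDHdim 2, low for Hspa5 and Calr, was highest, and ALDHdim 5, highest for both, was next to lowest, but ALDHbr 3 was low for all 3 genes. The log2 fold change was −0.10 (SE 0.13), and it was −0.03 without ALDHdim 2 and −0.16 without ALDHdim 5.

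Ddit3, the CHOP gene, was counted 130 times in all and was the least precise of the 10. The counts were 14, 1, 7, 10 and 13 in ALDHbr and 12, 27, 14, 8 and 24 in ALDHdim. That is 1.96 CPM in ALDHbr 2 and between 6.74 and 13.6 CPM in the other 9 libraries. The log2 fold change was −0.41 (SE 0.31), with a 95% interval of the fold from 0.476 to 1.19, and it was −0.16 without ALDHbr 2 and ALDHdim 2. Exons of Mars, which had 212 counts, lie on the other strand of Ddit3, and the annotation holds a second same-strand gene of that name that is not analysed here, so how shared reads were counted is uncertain.

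**Figure D2:**
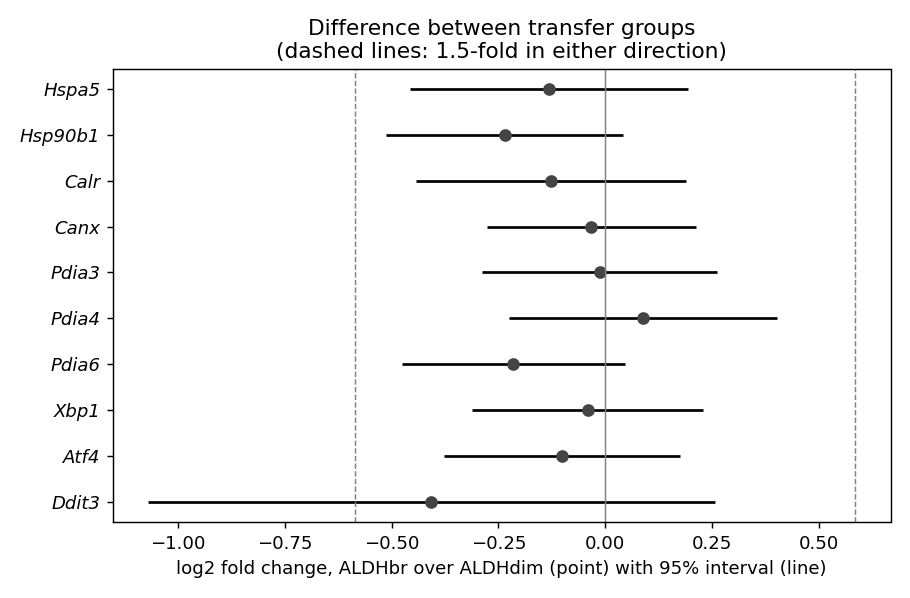
Log2 fold change of ALDHbr over ALDHdim for each of the 10 genes, with its 95% interval from edgeR's quasi-likelihood fit of 5 libraries a group. Every interval includes 0, and Ddit3, with a log2 fold change of −0.41, has the widest.

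The estimates were tight for all but 1 of the genes. The 95% interval of the fold lay within 1.5-fold either way for 9 genes, all but Ddit3, against 48.6% of all tested genes. For Canx it ran from 0.825 to 1.16, and for Xbp1 from 0.806 to 1.17. With any 1 library left out, the log2 fold change lay between −0.205 and −0.072 for Calr, between −0.065 and −0.001 for Canx, and between −0.079 and 0.046 for Pdia3. It lay between −0.198 and −0.044 for Hspa5, between −0.304 and −0.202 for Hsp90b1, between −0.264 and −0.169 for Pdia6 and between −0.538 and −0.272 for Ddit3. The biological coefficient of variation had a median of 16.1% over the 10 genes, 17% over all tested genes, 40% over 12 genes of matrix-secreting fibroblasts and 49.8% over the tested plasma cell genes. In data simulated for this comparison, with changes set on 200 genes drawn from all 10844, the test recovered 15.2% of 1.5-fold and 63.2% of 2-fold changes. Those rates are over genes of every precision, drawn independently of each other, and are not rates for the 10. The median SE was 0.131 over the 10 genes and 0.205 over all tested genes.

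The wider folding system was read from 9 further lists of the ER and its stress response. Of their 141 genes in the table, 132 were tested and 0 passed in edgeR, where 0% of all tested genes did. An unadjusted p under 0.05 was found for 2 of the 132, against 3.71% of all tested genes. Estimates were higher in ALDHbr for 65 and lower for 67, or 50.8%, against 48.1% of all tested genes. The median log2 fold change was −0.01. For 2 of the 132, Dad1 and Vkorc1, the groups did not overlap, against 0.535% of all tested genes. Partners of the ER Hsp70 and Hsp90 split 7 to 7 (median 0.03), from Cnpy3, a helper of GRP94, at 0.35 (SE 0.18) to Sec63, which recruits BiP to the translocon, at −0.16 (SE 0.14). Disulfide formation had 12 higher and 4 lower (median 0.04), from Pdia5 at 0.44 (SE 0.24) to the peroxiredoxin Prdx4 at −0.17 (SE 0.14). Vkorc1, the reductase of vitamin K, is named because its groups did not overlap, at 78.1 ± 5.28 CPM in ALDHbr and 64.2 ± 5.23 in ALDHdim (SD, n = 5 each), with a log2 fold change of 0.28 (SE 0.12) and an unadjusted p of 0.0364 in edgeR. Entry into the ER also had 12 higher and 5 lower (median 0.04), from the channel subunit Sec61g at 0.50 (SE 0.24) to Sec62 at −0.07 (SE 0.14).

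Glycosylation and glycoprotein folding had 6 higher and 9 lower (median −0.11), and ER-associated degradation 6 higher and 11 lower (median −0.08). Dad1, a subunit of the enzyme that attaches N-glycans, had 175 ± 6.63 CPM in ALDHbr and 154 ± 8.44 in ALDHdim (SD, n = 5 each). All 5 ALDHbr libraries were above all 5 ALDHdim libraries for Dad1, with a log2 fold change of 0.19 (SE 0.11) and an unadjusted p of 0.103 in edgeR. Ganab, a glucosidase that trims N-glycans, was at −0.30 (SE 0.17), and Vcp, the ATPase that pulls proteins out of the ER, was also at −0.30 (SE 0.17). Edem2, which marks glycoproteins for degradation, was at 0.27 (SE 0.17).

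Sensors and their proteases had 3 higher and 6 lower (median −0.02, but −0.25 without ALDHbr 1). The sensors named above, added here outside the naming rule, were at −0.02 (SE 0.26) for Ern1, the IRE1 gene, −0.02 (SE 0.19) for Eif2ak3, the PERK gene, and −0.20 (SE 0.16) for Atf6. Creb3l1, an ATF6 relative that is cut in the same way and is known for driving collagen genes in bone, averaged 18.1 ± 4.44 CPM in ALDHbr and 25.4 ± 3.23 in ALDHdim (SD, n = 5 each). Its log2 fold change was −0.52 (SE 0.20), with an unadjusted p of 0.0211 and an adjusted p of 0.99925 in edgeR, and the groups overlapped. Mbtps2, the second of the proteases that cut ATF6, was at 0.25 (SE 0.26).

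Targets of ATF4 and CHOP had 9 higher and 12 lower among 21 tested (median −0.03), from the cystine carrier Slc7a11 at 0.49 (SE 0.59) to the amino acid carrier Slc7a1 at −0.50 (SE 0.29). The eIF2 group had 5 higher and 7 lower (median −0.07), from Eif2b3 at 0.39 (SE 0.28) to Eif2s2 at −0.24 (SE 0.14). Death genes tied to lasting stress had 5 higher and 6 lower (median −0.04), from Pmaip1 at 0.37 (SE 0.24) to Bid at −0.35 (SE 0.28). Of a list of cytosolic and mitochondrial chaperones set beside these, 8 were higher and 6 lower (median 0.05). Hsp90aa1, the inducible cytosolic Hsp90, was at −0.42 (SE 0.16), with an unadjusted p of 0.0208 in edgeR that did not hold after adjustment (0.99925), and Hspe1 of mitochondria was at 0.21 (SE 0.15).

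**Figure D3:**
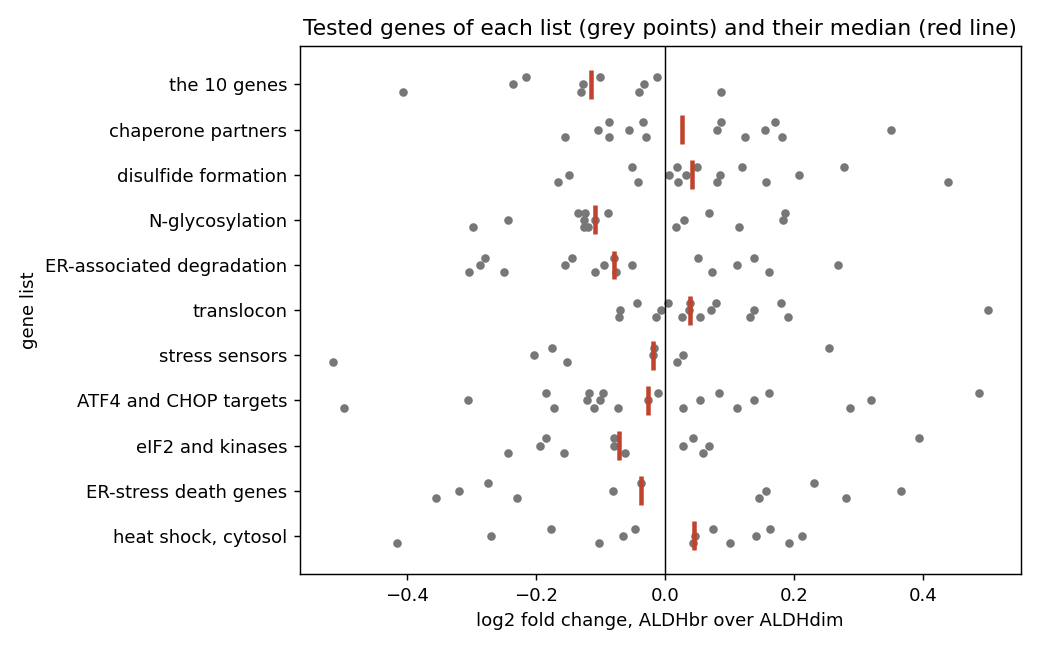
Log2 fold change of ALDHbr over ALDHdim for each tested gene of the 10 members and of the further lists, with 1 point per gene and a bar at the median of each list. The medians of the ER lists lie between −0.11 and 0.04, and no gene passed the adjusted threshold.

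Across the libraries the 10 genes did not move as 1 block. For Calr and Xbp1 the libraries fell into 2 clusters, with a gap of more than 0.333 of the range, so no correlation value over all 10 libraries is given for them. Of the 28 pairs among the other 8 genes, 21 had a positive Pearson correlation of log2 CPM and the median was 0.266, or 0.098 without ALDHbr 2. In permutation tests with adjustment over all 45 pairs, 2 of the 28 passed by Pearson's r. By Spearman's rho 0 of 45 passed, with 4 at an unadjusted p under 0.05.

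Hsp90b1 and Pdia6 went together, with r 0.901 (permutation p 0.00046, adjusted p 0.0207), rho 0.867 (adjusted p 0.0808) and r 0.789 without the 2 libraries farthest from the median of Hsp90b1. Pdia3 and Atf4 went opposite ways, with r −0.853 (permutation p 0.00154, adjusted p 0.0247), rho −0.818 (adjusted p 0.084) and r −0.676 without the 2 farthest. Neither pair passed when ALDHbr 2, ALDHbr 3 or ALDHdim 5 was left out, although r lay between 0.865 and 0.93 for the first and between −0.929 and −0.747 for the second in every such fit.

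**Figure D4:**
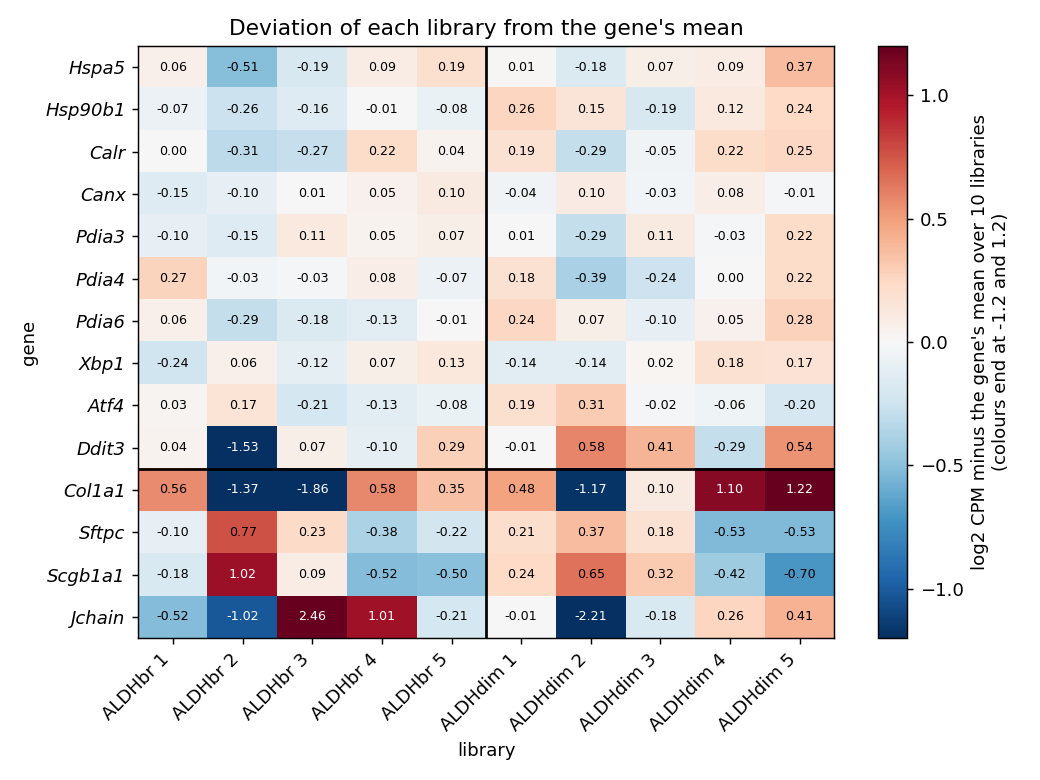
Log2 CPM of each library minus the gene's mean over the 10 libraries, for the 10 genes (above the line) and for Col1a1, Sftpc, Scgb1a1 and Jchain (below it). Columns are the 5 ALDHbr and 5 ALDHdim libraries, and colours end at −1.2 and 1.2. ALDHbr 2 lies below the mean in all 7 chaperone and isomerase rows and above it for Sftpc, and Atf4 and Pdia3 have opposite signs in 8 of the 10 columns.

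The libraries low for Calr were the libraries low for collagen. Col1a1, a chain of type I collagen, had 564, 147, 104, 570 and 487 CPM in ALDHbr and 533, 168, 409, 815 and 888 CPM in ALDHdim. ALDHbr 2, ALDHbr 3 and ALDHdim 2 were apart from the other 7 for Col1a1 by a gap of 0.414 of its range, as they were for Calr, and they also had the 3 lowest values of Hspa5. Each kind of transferred cell is among them. Within the other 7 libraries, Calr and Col1a1 had r 0.782 and rho 0.893 (exact permutation p 0.0381 for r), which did not hold after adjustment over 80 relations (0.348) and came to 0.656 without the 2 farthest libraries. Hspa5 and Col1a1 in these 7 had r 0.568 (exact permutation p 0.177) and r −0.177 without the 2 farthest. Among the 45 pairs of folding genes, 0 passed within these 7. Hsp90b1 and Pdia6 had r 0.852 there (exact permutation p 0.0204, adjusted p 0.36) and 0.425 without the 2 farthest. Pdia3 and Atf4 had r −0.604 (exact permutation p 0.142, adjusted p 0.519) and −0.272 without the 2 farthest.

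Matrix genes without such a gap could be read over all 10 libraries. These relations come from a family of 220, 10 genes with 12 fibroblast and 10 alveolar type 2 genes, which was added after the values were seen. Col5a2, a chain of type V collagen, had 115, 29.3, 56.9, 117 and 153 CPM in ALDHbr and 98.0, 45.4, 79.95, 152 and 209 CPM in ALDHdim, lowest in ALDHbr 2 and highest in ALDHdim 5, as Hspa5 was. Hspa5 and Col5a2 had r 0.957 and rho 0.952 (permutation p 8e-05, adjusted p 0.0088) and r 0.915 without the 2 farthest. Within the 7 libraries of higher Col1a1 the value was 0.835 (exact permutation p 0.0137, adjusted p 0.368). Fn1 (fibronectin) gave r 0.912 with Hspa5 (permutation adjusted p 0.00911), 0.767 without the 2 farthest and 0.59 within the 7. Cthrc1, a marker of collagen-producing fibroblasts after lung injury, gave 0.884 (permutation adjusted p 0.00924), 0.805 and 0.825. These 3 were named after their values were seen, and not all matrix genes went with Hspa5: r was 0.519 for Postn, 0.172 for Pdgfra and −0.459 for Dcn, none of which passed.

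Over all 10 libraries, neither of the next 2 relations with markers of other cells passed the test. Ptprc, the leukocyte marker CD45, had r 0.837 with Hspa5 (permutation adjusted p 0.0619 over 80 relations), 0.218 without the 2 farthest libraries and 0.845 within the 7 (exact permutation p 0.00615, adjusted p 0.246). Pecam1, the endothelial marker CD31, had r 0.799 with Atf4 (permutation adjusted p 0.064), 0.826 without the 2 farthest and 0.75 within the 7. Within the 7, 1 of the 80 relations passed, Xbp1 with Pecam1, at r −0.987 (exact permutation p 0.000198, adjusted p 0.0158). Over all 10 libraries that relation did not pass (permutation adjusted p 0.161). ALDHbr 1 and ALDHdim 1, of the low cluster of Xbp1, are among these 7, so r −0.987 spans both of its clusters. They had the most Pecam1 of the 7, at 445 and 386 CPM, and r without the 2 libraries farthest in Pecam1 was −0.967. Between the groups the log2 fold change was −0.15 (SE 0.18) for Ptprc, −0.04 (SE 0.22) for Pecam1 and 0.09 (SE 0.17) for Ager, the first marker of alveolar type 1 cells.

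Hspa5 ran against surfactant and club cell message. Sftpc, surfactant protein C of type 2 cells, was highest in ALDHbr 2 at 35810 CPM, where Hspa5 was lowest, and was 14600 CPM in ALDHdim 4 and in ALDHdim 5. Hspa5 and Sftpc had r −0.88 and rho −0.915 (permutation p 0.00039, adjusted p 0.0112 over 80 relations) and r −0.86 without the 2 farthest, and between −0.92 and −0.79 with any 1 library left out. Within the 7 libraries of higher Col1a1 it was −0.624 (exact permutation p 0.12). Of the 80 relations with marker genes 6 passed with all libraries, 1 without ALDHbr 2 or without ALDHdim 2, and 0 without ALDHdim 5. Scgb1a1, the secretoglobin of club cells, gave r −0.881 and rho −0.842 with Hspa5 (permutation adjusted p 0.0112 and 0.0519) and −0.70 without the 2 farthest. All CPM of a library share 1 total, and the part of that in these relations was not tested.

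The highest libraries of Atf4, ALDHdim 2, ALDHdim 1 and ALDHbr 2, were also the 3 highest for Sftpb, surfactant protein B. Atf4 and Sftpb had r 0.875 and rho 0.867 (permutation p 0.00081, adjusted p 0.0135 over 220 relations) and 0.912 without the 2 farthest, with 0.795 within the 7 libraries. The largest gap of Sftpb was 0.331 of its range, with 5 libraries on each side, just under the limit of 0.333 for separate clusters. Its r may therefore rest largely on the contrast of these sets of libraries. Etv5, a transcription factor that keeps the type 2 identity, gave r 0.909 with Atf4 (permutation adjusted p 0.00911) and 0.816 without the 2 farthest. Sftpb and Etv5 are named outside the naming rule, from the family of 220 relations added after the values were seen. Not all type 2 genes passed with Atf4: r was 0.467 for Napsa, 0.448 for Abca3 and 0.136 for Sftpd, none of which did. Over the 7 type 2 genes without separate clusters, all 7 had a positive r with Atf4 (median 0.641, or 0.579 without ALDHbr 2) and 0 had one with Hspa5 (median −0.646, or −0.569). Over 8 such fibroblast genes, 3 were positive for Atf4 (median −0.342, or −0.23) and 7 for Hspa5 (median 0.688, or 0.547). With Jchain, the joining chain of plasma cell antibody, Atf4 had r −0.831 (permutation adjusted p 0.0298), rho −0.818 (adjusted p 0.0706), −0.685 without the 2 farthest and −0.529 within the 7 (exact permutation p 0.218). Atf4 and Hspa5 themselves had r −0.538 (permutation adjusted p 0.429), and no test compared the relations of Atf4 with those of Hspa5.

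**Figure D5:**
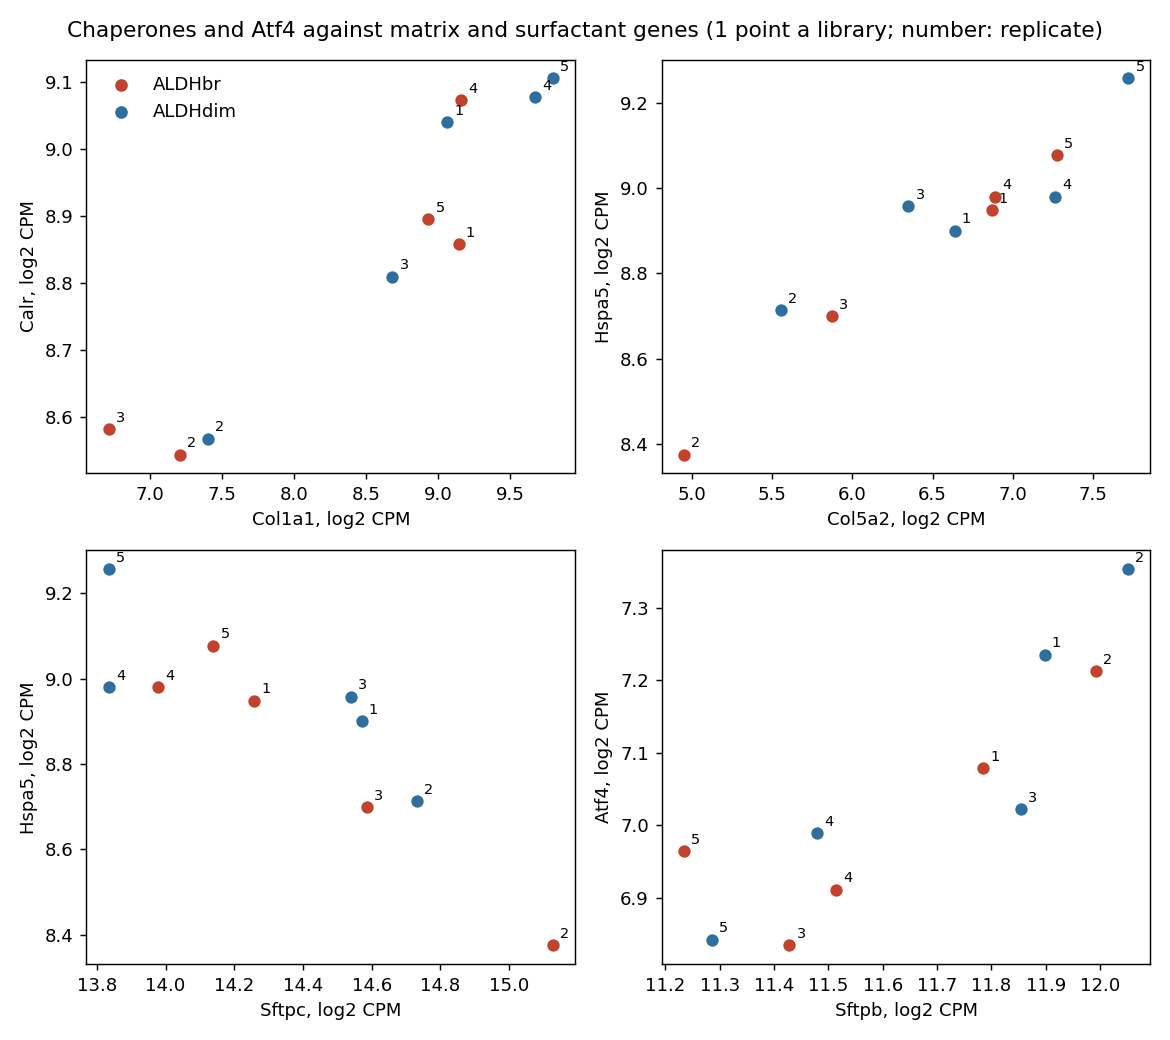
Log2 CPM of Calr against Col1a1, of Hspa5 against Col5a2 and against Sftpc, and of Atf4 against Sftpb, with 1 point per library numbered by replicate and coloured by group. ALDHbr 2, ALDHbr 3 and ALDHdim 2 sit apart at the low end for Calr and Col1a1, and ALDHbr 2 has the lowest Hspa5 and the highest Sftpc (35810 CPM).

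The relations above do not separate the transfer groups. Beside them, the 12 fibroblast genes summed to 3881 to 7430 CPM in ALDHbr and 3889 to 8901 in ALDHdim, the 10 type 2 genes to 26710 to 53550 and 23210 to 43750, the 9 club cell genes to 22270 to 68790 and 21630 to 52710, and the 12 plasma cell genes to 1023 to 5312 and 730.5 to 1976. None of the fibroblast, type 2 or club cell genes was at 0 in any library, so the markers of lung were present in every library. All 12 fibroblast genes had lower estimates in ALDHbr, against 48.1% of all tested genes, with a median log2 fold change of −0.27 and 0 passing in edgeR. Of 9 tested plasma cell genes, 8 had higher estimates (median 0.37), against 51.9% of all tested genes. The plasma cell sum of 5312 CPM was that of ALDHbr 3, and the next ALDHbr library had 2599. Genes of a list were measured in the same libraries, so these counts are not of separate observations. The median was 0.04 over type 2 genes, 0.07 over alveolar type 1 genes, −0.16 over club cell genes, −0.08 over leukocyte and over endothelial genes and −0.87 over neutrophil genes, with 0 passing in edgeR. The neutrophil genes summed to 1279 CPM in ALDHdim 2, to 939.7 in the next ALDHdim library and to 557.4 to 896.9 in ALDHbr. The part of these cells in the levels of the folding genes was not tested.

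The genes most like each regulator over the 10 libraries were ranked by Pearson's r of log2 CPM among 10431 genes, as a description. For Hspa5 they were Cxcl9 (0.968), a chemokine induced by interferon gamma, Mcm6 (0.965), a subunit of the replication helicase, Col5a2 (0.957) and Ttyh2 (0.948). For Xbp1 the same ranking gave Prox1, the factor of lymphatic endothelium, P2ry10, Gmfg and the leukocyte sialoglycoprotein gene Spn, with no value given because the ranking spans the 2 clusters. For Atf4 they were Egln1 (0.95), an oxygen-sensing prolyl hydroxylase, Slc4a5 (0.937), the fatty acid receptor gene Cd36 (0.933) and Cadm1 (0.931). For Ddit3 they were Tbc1d22b (0.983), Rrp1b (0.973), Rlf (0.964) and Tmem87b (0.927), and the last came to 0.618 without ALDHbr 2, the library with 1 count of Ddit3. No other member was among the 4 genes most like any of these.

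Library totals ran from 588063 to 2002947 counts, and 94.4% to 98.0% of them fell in tested genes. The share was lowest in ALDHbr 3 (94.4%) and ALDHbr 5 (95.6%). These libraries also had the most genes with any count, 24722 and 25377, against 17044 to 21209 in the others. They were left out together in an alternative fit. Over all 10844 tested genes, 0 passed in edgeR, with 402 at an unadjusted p under 0.05, or 272 to 1141 with 1 library left out. By DESeq2 0 passed with 1465 such genes among 33347, and by limma-voom 0 with 687. Nothing in the labels ties each library to its own animal, and the p-values cover only the spread that these libraries show, which may be technical.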

How the data were processed

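Per the labels' protocols, the method was BRB-seq: RNA of each lung was barcoded at reverse transcription from a dT primer, and samples were then pooled and amplified, so reads lie near the 3′ end and a level is not per length. The authors deposited whole-number counts per gene, not normalized. Per the submitters' processing notes, the tools were featureCounts 2.0.1, HISAT2 2.2.1, Trim Galore 0.6.7, UMI-tools and DESeq2 and the builds GRCm38 and GRCh38, with no roles given. Whether counts are molecules or reads, and whether strand was used, were not stated.

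Genes were filtered with filterByExpr (minimum count 10), scaled by TMM and compared in edgeR 4.0.16 in R 4.3.3 (robust quasi-likelihood fit, Benjamini-Hochberg threshold 0.05). Fold changes are ALDHbr over ALDHdim. CPM are over tested genes, and log2 CPM has a prior count of 2. Correlations were tested by 100000 permutations, or exactly for under 10 libraries. In 5 simulations of 10844 genes with 200 changed, 6.4% of calls were false. Each simulated gene was drawn independently, while genes of these libraries varied together, so the rate may differ in these data. All 33347 identifiers were found in GENCODE M21 on GRCm38. Alternatives used DESeq2 1.42.0, limma-voom (3.58.1), other scalings and filters, the replicate number as a term, removal of abundant transcripts, and fewer libraries. Plots used matplotlib 3.10.9.

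The members and lists were chosen with earlier results of these data known. Named genes are the 10 members, the tested gene of largest and of smallest fold change in each pathway list, any past the threshold, the 4 genes most like Hspa5, Xbp1, Atf4 and Ddit3, and the first marker of each cell list. Exceptions are marked in the text. Every pair of libraries differed by more than counting noise (chi-square over its degrees of freedom at least 2.21).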

Additional observations from a re-analysis of the deposited data

Results flagged for a closer look

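Among 38 sets of 5 values, the 10 folding genes, 8 markers and the sum of the 7 chaperone and isomerase genes in each group, 2 held a library far from the other 4, where chance alone gives about 1 in 20, or 1.9. None of the 20 sets of folding genes was among them. Scgb1a1, the club cell secretoglobin, was 44490 CPM in ALDHbr 2 and 15250 to 23270 CPM in the other ALDHbr libraries, a gap of 0.726 of the range. ALDHbr 2 was also lowest for Hspa5, Hsp90b1, Calr, Pdia6 and Ddit3. S100a8, a neutrophil calcium-binding protein, was 300.2 CPM in ALDHdim 2 and 41.7 to 104 CPM in the other ALDHdim libraries, a gap of 0.757 of the range. ALDHdim 2 had the highest Atf4 and Ddit3 and the lowest Pdia3 and Pdia4.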

How the results depend on the processing

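Over 20 alternatives none of the 10 genes passed the adjusted threshold, and the lowest adjusted p of any was 0.384 (edgeR, Hsp90b1, with no low-count filter). Of 548 recomputed values 528 stayed within the limits set for them and 20 moved. With no filter 185 genes passed over the whole table, none of them a member. ALDHbr 3 and ALDHbr 5 had the most genes with any count, and the part of that in these 185 was not tested. With 1 library left out in turn, 0 genes and 0 members passed in every fit, and the members' median lay between −0.134 and −0.063. It was −0.174 with no filter. The median over all genes moved to 0.28 with DESeq2, which keeps unfiltered genes. Estimates of Canx, Pdia3 and Xbp1 changed sign in 2, 4 and 3 alternatives.

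Member pairs past the adjusted threshold numbered 0 to 3 with 1 library left out: 0 without ALDHbr 2, ALDHbr 3 or ALDHdim 5 and 1 without ALDHdim 2. They numbered 0 without ALDHbr 3 and ALDHbr 5 together. Members with marker genes numbered 0 to 12: 0 without ALDHdim 5, 1 without ALDHbr 2 or ALDHdim 2, 3 without ALDHbr 4 and 12 without ALDHbr 3, against 6 with all libraries. Fewer libraries also make the test weaker.

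Same-numbered libraries of the groups had deviations that correlated at 0.062 to 0.366, and 3 of 5 matched their own number best, a hint of pairing from the data. The numbers were not taken to pair them because no label ties them and 1 correlation was under 0.1, the level asked of every pair. With the replicate block, 0 genes and 0 members passed, 727 genes had an unadjusted p under 0.05, and the members' median was −0.109. Depth limits Ddit3, with 1 to 27 counts per library.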

Other observations

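The ERSE letters marked 37 genes in all, of which 12 were tested. Of these, 3 had higher and 9 had lower estimates in ALDHbr, with a median log2 fold change of −0.11, and 0 passed in edgeR. Without the 5 members, 7 remained, 3 higher and 4 lower with a median of −0.03, against 0.01 over all tested genes. They were Creld2, Dnajc3 and Syvn1, which serve folding and degradation in the ER, and Alg12, Hnrnpa3, Pan2 and Spats2l. Alg12 encodes a mannosyltransferase of N-glycan assembly. Like Hnrnpa3, Pan2 and Spats2l, it is not on the ER lists and is named for having the element. The RNA-binding protein gene Hnrnpa3 had the lowest estimate, at −0.30 (SE 0.16), with 65.7 CPM in ALDHbr and 82.8 in ALDHdim and an unadjusted p of 0.087 in edgeR (adjusted p 0.99925). Syvn1, the ubiquitin ligase of ER-associated degradation, was at −0.15 (SE 0.24), and Dnajc3, a BiP partner that restrains PERK, was at −0.09 (SE 0.12). Of the further ER lists, the element was also before Derl3, which was not among the tested genes.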
